A study of Arabidopsis thaliana with 36 samples.

Results

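JUB1 (JUNGBRUNNEN 1, also ANAC042) and 5 genes known as its direct targets, DREB2A, GA3OX1, DWF4, GAI and RGL1, were followed through cold acclimation and deacclimation of Arabidopsis thaliana rosettes. The 6 genes were picked by identifier from what is known of JUB1, without a threshold on any measured value. Earlier results of these data were known when they were picked. They are 6 of the 34262 genes in the count tables. All 6 passed the filter on low counts, which left 20679 genes.

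The study sequenced total RNA of whole rosettes from the lines jub1, mbf1c and Col0 in 4 conditions, with 3 biological replicates in each of the 12 groups, 36 libraries in all. Col0 is the wild-type accession, jub1 is named for JUB1, and mbf1c is named for MBF1C, a transcriptional coactivator known from the heat response. The labels do not describe the allele carried by either mutant line and do not say how many rosettes went into a library. In the NonA condition (non-acclimated), plants were harvested at an age of 28 days at 20 °C by day under 200 µE of light. In ACC (cold acclimated), 28-day-old plants had spent 3 days at 4 °C under 90 µE and were 31 days old. In Deacc2 and Deacc4 (deacclimated), plants had returned to 20 °C and 200 µE for 2 and 4 days after the cold, at ages of 33 and 35 days. All 4 conditions had a day length of 16 h. Between ACC and each other condition, temperature, light intensity and age differ together and cannot be told apart. NonA, Deacc2 and Deacc4 share temperature and light, and between them age and past cold cannot be told apart.

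JUB1 is a transcription factor of the NAC family, known for delaying leaf senescence and raising tolerance to abiotic stress while holding back growth. It is known to repress GA3OX1 and DWF4, which encode enzymes of gibberellin and brassinosteroid synthesis, and to activate GAI and RGL1, which encode DELLA repressors of gibberellin responses. It also activates DREB2A, which encodes a transcription factor of the drought and heat responses. JUB1 itself is known to be activated by the homeodomain factor HB13 and repressed by PIF4 and BZR1, factors of the light, temperature and brassinosteroid pathways.

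In the RefSeq annotation of TAIR10.1, JUB1 (AT2G43000) lies on chromosome 2 at 17880457-17882636 on the minus strand, in 3 exon blocks, and its neighbour on the side of higher coordinates is PIF4 at a gap of 3464 bases. DREB2A (AT5G05410) lies on chromosome 5 at 1602205-1604112 on the plus strand. GA3OX1 (AT1G15550) lies on chromosome 1 at 5344388-5346342 on the minus strand, and DWF4 (AT3G50660) on chromosome 3 at 18813949-18817405 on the minus strand. GAI (AT1G14920, chromosome 1 at 5148982-5151415) and RGL1 (AT1G66350, chromosome 1 at 24748105-24750186) are plus-strand genes with 1 exon each. The counts carry no strand, and 7.78% of the exonic bases of JUB1 and 4.42% of those of DREB2A lie opposite a gene on the other strand. Reads on bases shared by 2 genes would have been set aside as ambiguous, a class of 3.13% to 5.86% of reads. None of the 6 genes has a near-identical copy, the closest relative being RGA, which matches GAI at 84.1% of 1160 aligned bases.

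The site described for JUB1 has the core GCCGT, and its longer form carries ACG after a spacer of 7 bases (GCCGTNNNNNNNACG). Within 1000 bases before the annotated start, the core was found on either strand in DREB2A, GAI and RGL1, which are 3 of the 6 genes, and in 34.1% of 27443 promoters of that length. The longer form was found in DREB2A alone among the 6, and in 144 of the 27443 promoters (0.525%). The windows around these matches are shown because the 3 genes that hold the core are those that JUB1 is known to activate. They are read on the plus strand of TAIR10.1, with the core, or its complement ACGGC, in capitals, together with the spaced ACG of DREB2A, and they span chr5:1601364-1601428 for DREB2A, chr1:5148175-5148249 for GAI and chr1:24748034-24748098 for RGL1.
DREB2A: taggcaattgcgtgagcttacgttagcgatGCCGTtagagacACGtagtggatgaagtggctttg
GAI: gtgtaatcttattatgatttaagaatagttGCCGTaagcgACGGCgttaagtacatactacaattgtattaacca
RGL1: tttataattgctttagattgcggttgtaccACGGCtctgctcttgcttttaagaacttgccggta

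The DREB2A match lies 811 bases before the start and the RGL1 match 41 bases before it, while GAI has a pair of matches on opposite strands at 777 and 767 bases. No core was found in the same window of JUB1, GA3OX1 or DWF4, which says only that these letters are not in that window. The short NAC core CACG was found in all 6 promoters, against 88.5% of the 27443. The abscisic acid response core ACGTG, whose complement contains CACG, was found in JUB1, DREB2A and GAI, 3 of the 6, against 54.4% of all promoters. The cold response core CCGAC, bound by the CBF factors, was found in 0 of the 6, against 37.4%. Within 300 bases of the start, RGL1 was the 1 gene of the 6 with GCCGT, against 13% of all promoters.

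**Figure D1:**
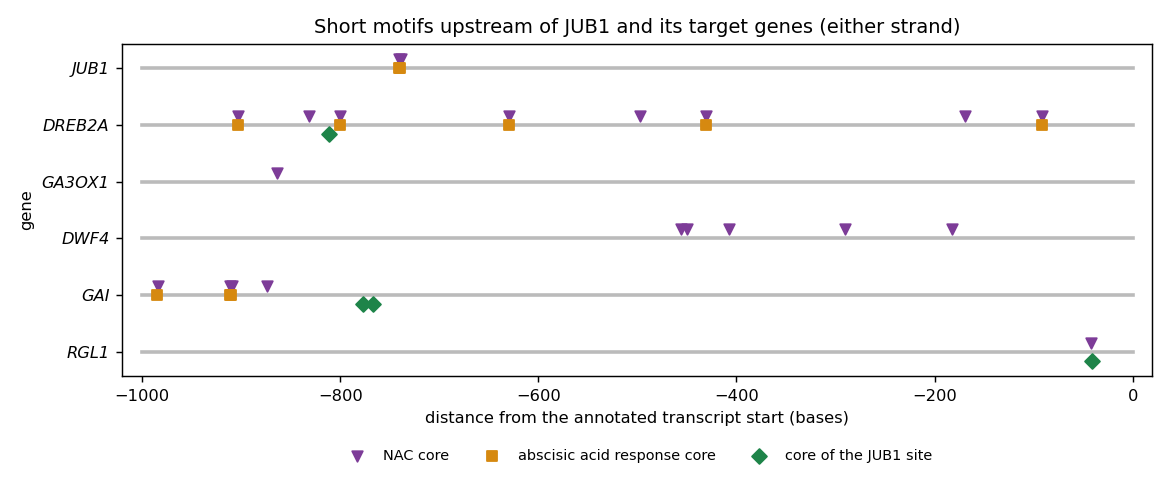
Positions of the NAC core CACG, the abscisic acid response core ACGTG and the core GCCGT of the JUB1 site on either strand over the 1000 bases before the annotated start of each gene, with the distance from the start in bases on the x axis and 1 line per gene. GCCGT stands in DREB2A at 811 bases, in GAI at 777 and 767 bases and in RGL1 at 41 bases before the start.

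The libraries held 14407060 to 63178347 gene counts, so that 3 counts correspond to 0.0475 to 0.208 CPM, the counts of a gene scaled to a fixed library total. Levels are given as CPM over all gene counts, or per kilobase of exon where genes are compared with each other. The 4 rosette leaf markers summed to between 19030 and 57540 CPM, and to a median of 51220 CPM in NonA, 23710 in ACC, 51520 in Deacc2 and 43100 in Deacc4. Summed root markers reached at most 1.13 CPM, flower markers 2.05 CPM and seed markers 0.350 CPM. Their part in the changes of the 6 genes was not tested. Fitted changes are log2 values after TMM scaling, which sets the bulk of genes near 0. With library totals alone the median change of all genes in ACC against NonA, averaged over the lines, was 0.42 in place of 0.00, and in Deacc2 against ACC it was -0.31 in place of -0.01. In jub1 against Col0, averaged over the conditions, it was -0.11 in place of -0.01. All fitted changes are relative to the TMM scaling, so a gene with equal CPM in ACC and NonA has a negative fitted change.

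JUB1 had 0.630, 0.508 and 0.439 CPM in the 3 NonA libraries of jub1, against 4.26, 5.21 and 2.38 CPM in those of Col0. In ACC it had 0.423, 0.517 and 0.460 CPM in jub1, against 0.664, 0.937 and 1.55 CPM in Col0. In Deacc2 it had 1.28, 0.861 and 1.12 CPM in jub1, against 7.20, 7.60 and 10.5 CPM in Col0. The jub1 libraries lay below all Col0 libraries in each of these conditions, with the narrowest gap in the cold. In Deacc4 the values were 1.19, 1.56 and 0.432 CPM in jub1, against 2.61, 7.49 and 7.33 CPM in Col0, again without overlap. As a share of the Col0 mean, JUB1 in jub1 stood at 13.3% in NonA, 44.4% in ACC, 12.9% in Deacc2 and 18.3% in Deacc4. Averaged over the 4 conditions, JUB1 fell by 2.29 on the log2 scale in jub1 against Col0 (SE 0.33, edgeR quasi-likelihood adjusted p = 0.000779, lower in 4 of 4 conditions). It was the 1 gene of the 6 called in that comparison, where 0.0339% of all genes tested were called. A low level of JUB1 reads remained in every jub1 library, the lowest being 7 counts in a library of the cold. Of all genes, 8.33% did not overlap between jub1 and Col0 in NonA, 5.61% in ACC, 5.7% in Deacc2 and 12% in Deacc4. At single conditions 0% of all genes were called in jub1 against Col0 by edgeR, with 129 to 819 genes at an unadjusted p under 0.05. There the fitted JUB1 changes were -2.69 in NonA, -1.20 in ACC, -2.90 in Deacc2 and -2.38 in Deacc4, and the adjusted p was at least 0.909. At Deacc2, DESeq2 gave an adjusted p of 0.0452.

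In mbf1c, JUB1 had 1.76, 2.01 and 0.694 CPM in NonA, 0.607, 2.21 and 0.734 CPM in ACC, 2.10, 10.5 and 4.97 CPM in Deacc2 and 0.828, 5.79 and 6.86 CPM in Deacc4. The NonA values lay below all 3 Col0 libraries, a gap seen for 5.22% of all genes in either direction, while those of the other 3 conditions overlapped Col0. Over the 4 conditions the fitted difference of mbf1c against Col0 was -0.46 (95% interval -1.10 to 0.18, edgeR adjusted p = 0.662). The libraries of mbf1c spread widely after the cold, with an SD of 4.25 around a mean of 5.85 CPM in Deacc2.

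JUB1 was lowest in the cold and highest after it in Col0, where the group means were 3.95 CPM in NonA, 1.05 in ACC, 8.43 in Deacc2 and 5.81 in Deacc4. JUB1 fell by 2.16 in Col0 in ACC against NonA (SE 0.65, edgeR adjusted p = 0.0101). It rose by 3.21 in Deacc2 against ACC (SE 0.66, adjusted p = 0.000363) and by 2.64 in Deacc4 against ACC (SE 0.65, adjusted p = 0.00177). In all 3 of these comparisons the Col0 libraries did not overlap between conditions, as was the case for 61.3%, 52.3% and 62.7% of all genes tested. Against NonA, JUB1 did not pass the test in Col0 in Deacc2 (1.05, adjusted p = 0.362) or in Deacc4 (0.48, adjusted p = 0.651). Averaged over the 3 lines, JUB1 rose by 1.26 in Deacc2 against NonA (SE 0.37, adjusted p = 0.00862), and the value in Deacc4 against NonA was 0.96 (SE 0.37, adjusted p = 0.0403). These averages include jub1, where only a low level of JUB1 reads remained. Alone, neither mbf1c (adjusted p of 0.108 in Deacc2 and 0.124 in Deacc4) nor jub1 (0.405 and 0.521) passed against NonA. The fall in the cold missed the threshold without replicate 1 of Col0 ACC (-1.86, adjusted p = 0.0629). The Deacc4 value over the lines missed it without any 1 of 9 of the 18 libraries, with the largest adjusted p of 0.0918 without mbf1c Deacc4 replicate 3.

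In mbf1c, JUB1 rose by 2.73 in Deacc2 against ACC (SE 0.66, edgeR adjusted p = 0.00161) and by 2.46 in Deacc4 against ACC (SE 0.66, adjusted p = 0.00362), where 21.3% and 22.9% of all genes were called higher. The libraries of mbf1c overlapped between conditions in both comparisons. In ACC against NonA JUB1 did not pass the test in jub1 (-0.68, adjusted p = 0.443) or in mbf1c (-0.83, adjusted p = 0.300). The Deacc4 value missed the threshold when only the compared groups were fitted (adjusted p = 0.0870). In jub1 the reads that remained gave 1.52 in Deacc2 against ACC (SE 0.69, adjusted p = 0.0833) and 1.46 in Deacc4 against ACC (SE 0.70, adjusted p = 0.0928), which did not pass the test. With the replicate number as a block the Deacc2 value was 1.55 (adjusted p = 0.0482). The difference of the Deacc2 response between jub1 and Col0 was -1.69 (SE 0.93, adjusted p = 0.9999). Over the 36 libraries JUB1 ran from 0.423 to 10.5 CPM, a 24.8-fold range, and its median was 1.13 CPM per kilobase.

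**Figure D2:**
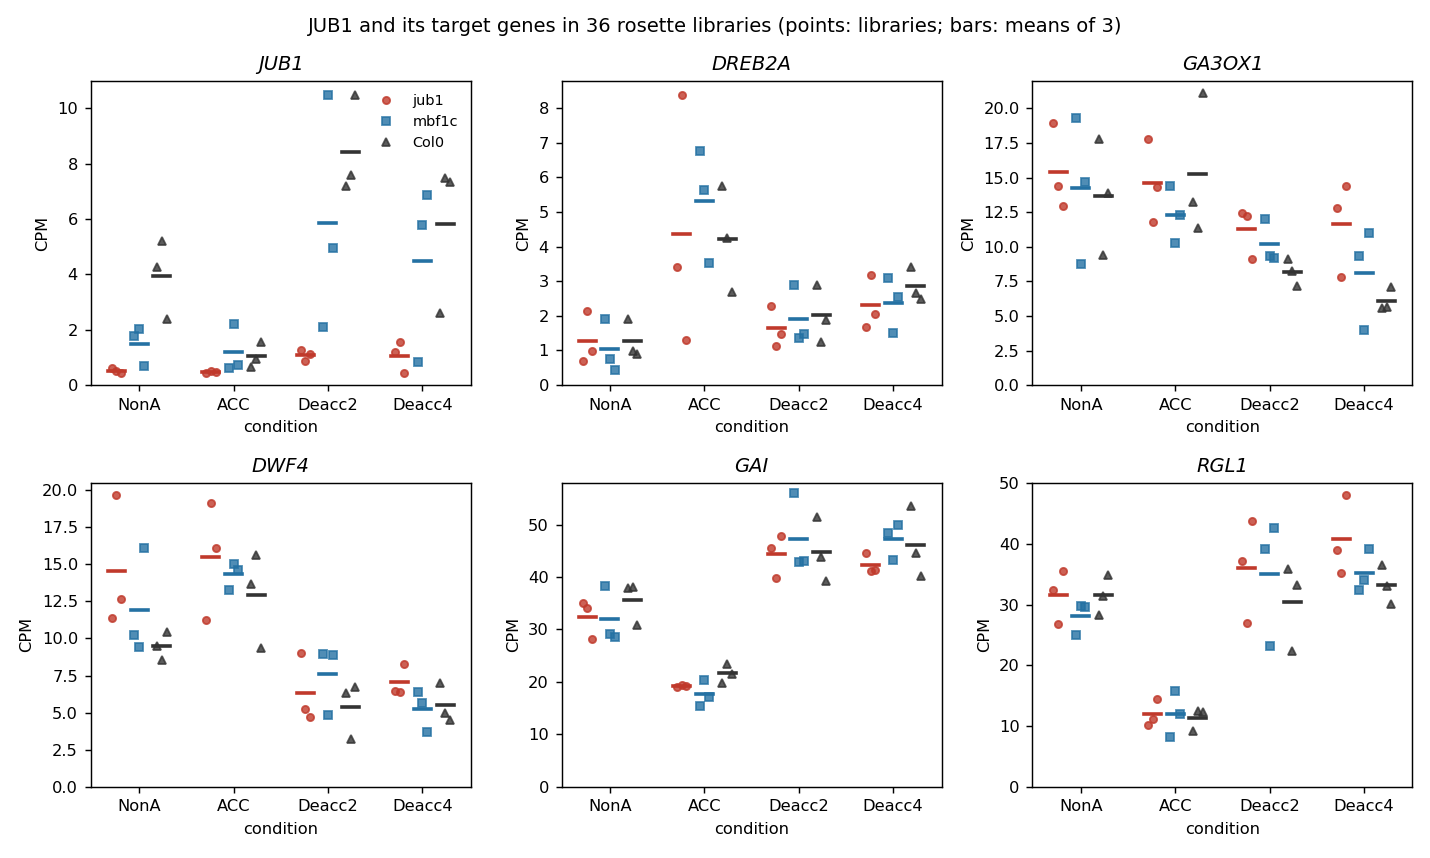
CPM of JUB1, DREB2A, GA3OX1, DWF4, GAI and RGL1 in every library, 1 panel per gene, with the 4 conditions on the x axis and the lines jub1, mbf1c and Col0 side by side; points are libraries and bars the means of 3. JUB1 is low in jub1 in each condition, and GAI and RGL1 are lowest in ACC in all 3 lines.

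Of the 6 genes, 4 were called in ACC against NonA in Col0 (1 higher and 3 lower), where 41.5% of all genes tested were called (20.8% higher and 20.7% lower). In Deacc2 against ACC 4 were called (3 higher and 1 lower), against 41.4% of all genes (21.8% higher and 19.6% lower), and in Deacc4 against ACC 5 (3 higher and 2 lower), against 44.9% (21.6% higher and 23.4% lower). JUB1, GAI and RGL1 moved the same way in each of these, lower in ACC than in NonA and higher in Deacc2 and Deacc4 than in ACC. These 3 comparisons share the ACC libraries. Without Col0 ACC replicate 1, the count in ACC against NonA was 2, with JUB1 and DREB2A no longer called. In Deacc2 against NonA 0 of the 6 were called by edgeR in Col0 (0.00484% of all genes), and in Deacc4 against NonA GA3OX1 alone, which was lower (6.11% of all genes called, 4.50% lower). That last count was 0 without the filter and with the first strand column of the count tables in place of their unstranded counts, 2 with DESeq2 and 3 with only the compared groups. Averaged over the 3 lines, the calls numbered 5 in ACC against NonA (70.4% of all genes), 5 in Deacc2 against ACC (64.8%), 6 in Deacc4 against ACC (67.6%), 4 in Deacc2 against NonA (40.7%) and 5 in Deacc4 against NonA (40.3%).

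DREB2A was highest in the cold. It had 5.76, 4.26 and 2.69 CPM in the ACC libraries of Col0, against 1.92, 0.990 and 0.888 CPM in NonA. In Deacc2 it had 2.90, 1.25 and 1.89 CPM and in Deacc4 3.41, 2.66 and 2.49 CPM. All ACC values of Col0 lay above all NonA values, where 61.3% of all genes did not overlap, counting both directions. The values of Deacc2 and Deacc4 overlapped ACC. DREB2A rose by 1.39 in Col0 in ACC against NonA (SE 0.45, edgeR adjusted p = 0.0156), by 1.93 in mbf1c (SE 0.45, adjusted p = 0.00122) and by 1.39 in jub1 (SE 0.44, adjusted p = 0.0126). Of all genes, 22.1% were called higher in mbf1c and 21.9% in jub1 in this comparison. Averaged over the lines DREB2A rose by 1.57 (SE 0.26, adjusted p = 5.80e-06) and then fell by 1.02 in Deacc2 against ACC (SE 0.25, adjusted p = 0.000727). By line the Deacc2 value was -0.79 in Col0 (adjusted p = 0.140), which did not pass, -1.16 in mbf1c (adjusted p = 0.0318) and -1.11 in jub1 (adjusted p = 0.0424). The mbf1c and jub1 calls were each lost without any 1 of 4 of the 6 libraries. Without jub1 ACC replicate 2 DREB2A had -0.34 in jub1 (adjusted p = 0.601). Over the lines it was higher in Deacc4 than in NonA (1.01, SE 0.26, adjusted p = 0.00319). The value over the lines in Deacc2 against NonA was 0.55 (adjusted p = 0.0861) and did not pass the test. In no single line did DREB2A pass in Deacc4 against NonA (adjusted p of 0.124 in Col0, 0.123 in mbf1c and 0.302 in jub1).

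One library carried much of the DREB2A value in jub1, where the ACC libraries had 3.41, 8.39 and 1.31 CPM and the NonA libraries 0.704, 2.14 and 0.977 CPM. Without jub1 ACC replicate 2, at 8.39 CPM, the jub1 change was 0.68 (edgeR adjusted p = 0.233). The jub1 call was also lost without NonA replicate 1 (adjusted p = 0.0679), and the Col0 call without NonA replicate 2, NonA replicate 3 or ACC replicate 1 (adjusted p of 0.0646, 0.0684 and 0.0705). In mbf1c DREB2A had 6.75, 5.64 and 3.53 CPM in ACC, against 1.90, 0.764 and 0.444 CPM in NonA, and the call held without any 1 library. The DREB2A value over the lines in Deacc4 against ACC was -0.55 (SE 0.25, adjusted p = 0.0478), and it missed the threshold with the replicate number as a block (-0.52, adjusted p = 0.0520) and without any 1 of 13 of the 18 libraries, with the largest adjusted p of 0.264 without jub1 ACC replicate 2.

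The close relatives of DREB2A followed it into the cold. Averaged over the lines, DREB2B rose by 0.97 (SE 0.24, edgeR adjusted p = 0.000742) and DREB2C by 1.68 (SE 0.29, adjusted p = 9.73e-06) in ACC against NonA. In Deacc2 against ACC DREB2C fell by 0.84 (SE 0.27, adjusted p = 0.00811). In Col0 the means were 2.05 CPM in ACC and 0.795 CPM in NonA for DREB2B, and 3.28 CPM in ACC and 1.09 CPM in NonA for DREB2C. Of DREB2B's exonic bases 69.5% lie opposite another gene. Reads on these shared bases would have been set aside as ambiguous, so its CPM may be too low.

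GA3OX1, which makes bioactive gibberellin, was lowest after the cold in Col0. It had 17.8, 9.43 and 13.9 CPM in NonA, 13.2, 11.4 and 21.1 CPM in ACC, 9.12, 8.26 and 7.18 CPM in Deacc2 and 5.56, 5.65 and 7.12 CPM in Deacc4. The Deacc4 libraries all lay below those of ACC and of NonA, while ACC and NonA overlapped. Of all genes, 62.7% did not overlap between Deacc4 and ACC and 39.3% between Deacc4 and NonA, counting both directions. GA3OX1 fell in Col0 by 1.11 in Deacc4 against ACC (SE 0.32, edgeR adjusted p = 0.00622) and by 1.26 in Deacc4 against NonA (SE 0.32, adjusted p = 0.0206). The first call was lost without Col0 ACC replicate 3, at 21.1 CPM (-0.60, adjusted p = 0.137). The second was lost without NonA replicate 1 or 3 or Deacc4 replicate 1 or 2, with adjusted p of 0.0787 to 0.143, and also without the filter on low counts (adjusted p = 0.0509) and with the first strand column (adjusted p = 0.0504).

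Averaged over the lines, GA3OX1 fell by 0.69 in Deacc2 (SE 0.18, edgeR adjusted p = 0.00426) and by 0.90 in Deacc4 (SE 0.18, adjusted p = 0.000529) against NonA. Against ACC it had a value of -0.44 in Deacc4 (SE 0.18, adjusted p = 0.0341), which missed the threshold without any 1 of 9 of the 18 libraries. In ACC against NonA it had a value of -0.46 (SE 0.18, adjusted p = 0.0279). That value was -0.05 with library totals alone (adjusted p = 0.837), and it missed the threshold without any 1 of 12 of the 18 libraries, with the largest adjusted p of 0.115 without jub1 NonA replicate 1. In mbf1c the value in ACC against NonA was -0.68 (adjusted p = 0.0795), and -0.66 with the replicate number as a block (adjusted p = 0.0330).

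GA3OX2, the relative of GA3OX1 with the next highest level, was highest in the cold, at a far lower level than GA3OX1. It had 1.60 ± 0.41 CPM in ACC and 0.279 ± 0.077 CPM in NonA in Col0 (SD, n = 3 each). Averaged over the lines, GA3OX2 rose by 1.66 in ACC against NonA (SE 0.23, edgeR adjusted p = 4.59e-07) and fell by 2.53 in Deacc2 against ACC (SE 0.23, adjusted p = 3.13e-10). GA3OX3 and GA3OX4 were at or near 0 in Col0, with means of at most 0.0176 CPM, and did not pass the filter.

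DWF4, a rate-limiting enzyme of brassinosteroid synthesis, was lower after the cold than in it in Col0, and lower than in it or before it on average over the 3 lines. In Col0 it had 9.52, 8.55 and 10.4 CPM in NonA, 13.7, 15.6 and 9.37 CPM in ACC, 6.29, 3.19 and 6.70 CPM in Deacc2 and 6.98, 4.97 and 4.53 CPM in Deacc4. All libraries of Deacc2 and Deacc4 lay below those of ACC and of NonA, and ACC and NonA overlapped. Of all genes, 52.3% in Deacc2 and 62.7% in Deacc4 did not overlap with ACC, and 21% and 39.3% did not overlap with NonA, counting both directions. DWF4 fell in Col0 by 0.97 in Deacc2 against ACC (SE 0.31, edgeR adjusted p = 0.0142) and by 0.96 in Deacc4 against ACC (SE 0.31, adjusted p = 0.0134). Against NonA it did not pass the test in Col0 in Deacc2 (-0.92, adjusted p = 0.190) or in Deacc4 (-0.91, adjusted p = 0.0737). Averaged over the lines it fell by 0.86 and 0.94 against ACC (SE 0.18 each, adjusted p = 0.000138 and 4.23e-05). Against NonA it fell over the lines by 1.05 in Deacc2 (SE 0.18, adjusted p = 0.000149) and by 1.14 in Deacc4 (SE 0.18, adjusted p = 5.06e-05).

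In the mutants the lower DWF4 level after the cold passed the test in some comparisons. DWF4 fell in jub1 by 1.02 in Deacc2 against ACC (SE 0.31, edgeR adjusted p = 0.0106), where 19.3% of all genes were called lower, and by 1.36 in Deacc2 against NonA (SE 0.31, adjusted p = 0.0299), where 3.71% were called lower. It fell in mbf1c by 1.08 in Deacc4 against ACC (SE 0.31, adjusted p = 0.00708), where 19.8% were called lower. In mbf1c it did not pass the test in Deacc2 against ACC (-0.59, adjusted p = 0.132) or against NonA (-0.88, adjusted p = 0.120). In Deacc4 against NonA it had -1.37 in mbf1c (SE 0.32, adjusted p = 0.0332), where 1.26% of all genes were called lower. The adjusted p there was 0.601 with only the compared groups, 0.0650 with library totals alone, 0.242 without NonA replicate 3 and 0.174 without Deacc4 replicate 3. In Deacc4 against ACC it had -0.79 in jub1 (SE 0.31, adjusted p = 0.0406), where 21.9% were called lower, and this call was lost without ACC replicate 2 or 3 or Deacc4 replicate 1 or 2 (adjusted p of 0.101 to 0.129). In jub1 the value in Deacc4 against NonA was -1.13 (adjusted p = 0.0664), and -1.15 with the replicate number as a block (adjusted p = 0.0322). The calls against ACC were lost with a correction for the relation between count and gene length. The slope of that relation averaged -0.334 ± 0.289 in NonA, 0.269 ± 0.157 in ACC, 0.073 ± 0.266 in Deacc2 and -0.008 ± 0.288 in Deacc4 (SD, n = 9 libraries each). With the correction, DWF4 in Col0 had -0.56 in ACC against NonA, where the uncorrected value was 0.05. With a length correction DWF4 had -0.57 in Deacc2 against ACC in Col0 (adjusted p = 0.308) and -0.65 in Deacc4 against ACC (adjusted p = 0.226), and over the lines -0.54 and -0.56 (adjusted p = 0.0648 and 0.0572). With it the value in jub1 was -0.81 in Deacc2 against ACC (adjusted p = 0.147) and -0.38 in Deacc4 against ACC (adjusted p = 0.508), and in mbf1c it was -0.64 in Deacc4 against ACC (adjusted p = 0.248). With only the compared groups the Deacc4 values against ACC also missed the threshold in jub1 (adjusted p = 0.0520) and in mbf1c (adjusted p = 0.0540). In Col0 the Deacc2 call was also lost without Deacc2 replicate 2 (-0.74, adjusted p = 0.0840), and the Deacc4 call without ACC replicate 2, Deacc4 replicate 2 or Deacc4 replicate 3 (adjusted p of 0.0591, 0.0532 and 0.0581) or with the first strand column (adjusted p = 0.0517). The jub1 call against ACC was lost without Deacc2 replicate 2 or 3 (adjusted p of 0.0519 and 0.0543), and that against NonA without NonA replicate 1 or 3 or any Deacc2 replicate (adjusted p of 0.0744 to 0.136) or with library totals alone (adjusted p = 0.0569).

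The DELLA genes GAI and RGL1 were low in the cold and back at or above the NonA level within 2 days of its end. GAI had 19.9, 23.4 and 21.6 CPM in the ACC libraries of Col0, against 37.9, 38.2 and 30.9 CPM in NonA. In Deacc2 it had 51.4, 43.8 and 39.3 CPM and in Deacc4 53.5, 44.5 and 40.3 CPM. Every ACC library lay below every library of the other conditions, and all Deacc2 and Deacc4 libraries lay above all NonA libraries, where 21% and 39.3% of all genes did not overlap. Between ACC and NonA, Deacc2 and Deacc4, 61.3%, 52.3% and 62.7% of all genes did not overlap. GAI fell by 1.07 in Col0 in ACC against NonA (SE 0.17, edgeR adjusted p = 3.19e-05) and rose by 1.33 in Deacc2 against ACC (SE 0.17, adjusted p = 1.06e-06) and by 1.33 in Deacc4 against ACC (SE 0.17, adjusted p = 9.27e-07). Against NonA the Col0 values, 0.26 in both, did not pass the test. Over the lines GAI was higher by 0.31 in Deacc2 (SE 0.10, adjusted p = 0.0129) and by 0.32 in Deacc4 (SE 0.10, adjusted p = 0.0107) than in NonA, and with a length correction these values were 0.10 and 0.17 (adjusted p = 0.607 and 0.317). The samples are bulk tissue, in which fewer cells of a type and less RNA per cell cannot be told apart.

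RGL1 had 9.22, 12.5 and 12.3 CPM in the ACC libraries of Col0, against 28.3, 31.4 and 34.9 CPM in NonA. In Deacc2 it had 35.9, 22.3 and 33.3 CPM and in Deacc4 36.5, 33.0 and 30.1 CPM. The ACC libraries again lay below all others, while NonA, Deacc2 and Deacc4 overlapped. Between ACC and NonA, Deacc2 and Deacc4, 61.3%, 52.3% and 62.7% of all genes did not overlap. RGL1 fell by 1.84 in Col0 in ACC against NonA (SE 0.33, edgeR adjusted p = 0.000104), and rose by 1.69 in Deacc2 against ACC (SE 0.32, adjusted p = 0.000165) and by 1.79 in Deacc4 against ACC (SE 0.32, adjusted p = 8.15e-05). Its values against NonA were -0.16 in Deacc2 and -0.05 in Deacc4, and neither passed the test.

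Both DELLA genes moved in the same way in the mutants. GAI fell in ACC against NonA by 1.21 in jub1 and 1.35 in mbf1c (SE 0.17 each, edgeR adjusted p = 6.87e-06 and 1.09e-06), where 23.1% and 24.8% of all genes were called lower. It rose in Deacc2 against ACC by 1.5 in jub1 and 1.74 in mbf1c (SE 0.17 each, adjusted p = 2.44e-07 and 1.87e-08), where 18.9% and 21.3% were called higher. RGL1 fell in ACC against NonA by 1.89 in jub1 (SE 0.33, adjusted p = 6.93e-05) and 1.78 in mbf1c (SE 0.32, adjusted p = 9.82e-05), and rose in Deacc2 against ACC by 1.89 in jub1 and 1.88 in mbf1c (SE 0.33 each, adjusted p = 5.29e-05 and 4.42e-05). In both mutants the ACC libraries lay below all NonA, Deacc2 and Deacc4 libraries for both genes. Against NonA, Deacc2 and Deacc4, ACC did not overlap in jub1 for 55.5%, 57.2% and 55.7% of all genes, and in mbf1c for 44.5%, 45.4% and 45.1%. These calls held in every alternative setting and without any 1 library.

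The other DELLA genes did not all follow. RGA, which had the highest level per kilobase of exon of the 5 in Col0, averaged 60.7 CPM per kilobase in NonA, 26.9 in ACC, 47.4 in Deacc2 and 42.4 in Deacc4. Over the lines RGA fell by 1.52 in ACC against NonA (SE 0.22, edgeR adjusted p = 1.25e-06) and rose by 1.03 in Deacc2 against ACC (SE 0.22, adjusted p = 0.000203). GAI and RGL1 averaged 8.88 and 5.44 CPM per kilobase in ACC, against 14.6 and 15.2 in NonA. RGL2, a DELLA gene known from seed germination, fell by 0.87 in ACC against NonA (SE 0.16, adjusted p = 2.47e-05) and rose by 0.68 in Deacc2 against ACC (SE 0.16, adjusted p = 0.000490), the rise missing the threshold with library totals alone (0.36, adjusted p = 0.0557). RGL3, known from jasmonate responses, had fitted values of -0.06 and -0.22 in the same comparisons (adjusted p = 0.841 and 0.405). Reads that match GAI and RGA equally well would have been set aside as multimapping, a class of 2.54% to 5.20% of reads.

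**Figure D3:**
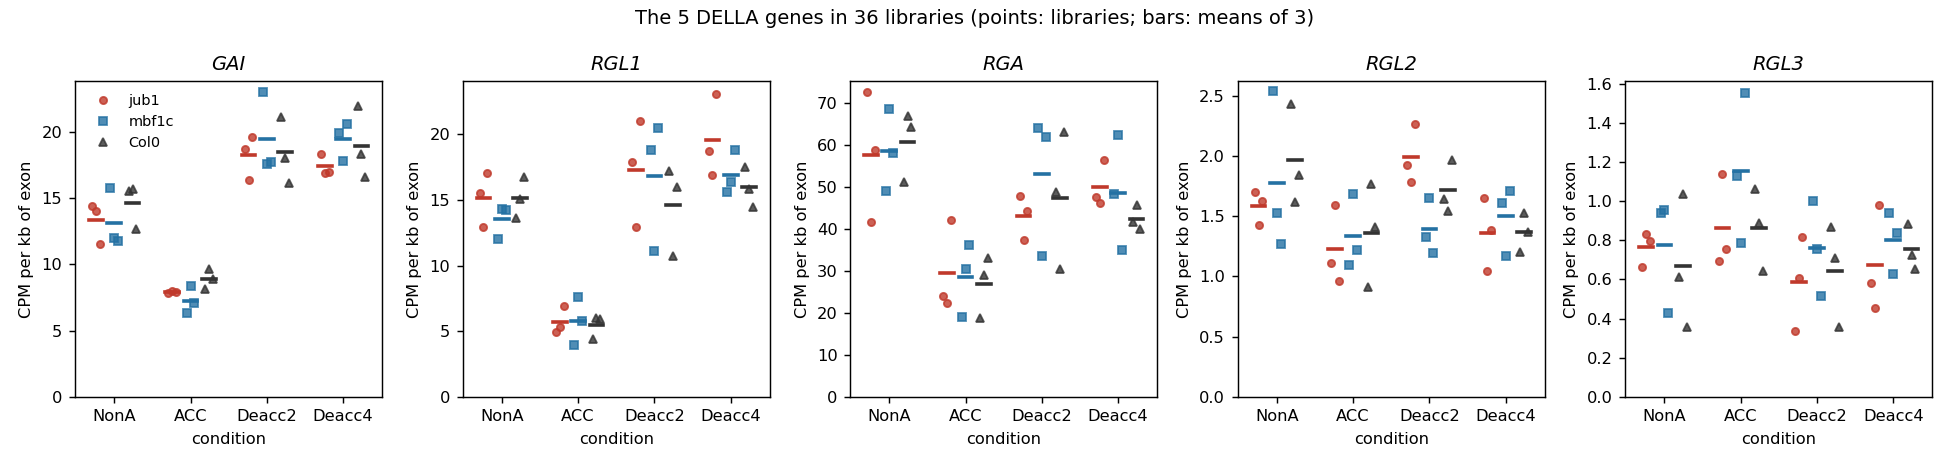
Mean CPM per kilobase of exon of the DELLA genes GAI, RGL1, RGA, RGL2 and RGL3 across the 4 conditions on the x axis, in jub1, mbf1c and Col0, with points for libraries. RGA in Col0 averages 26.9 in ACC and 60.7 in NonA, and RGL2 and RGL3 lie far below the other 3 genes.

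**Figure D4:**
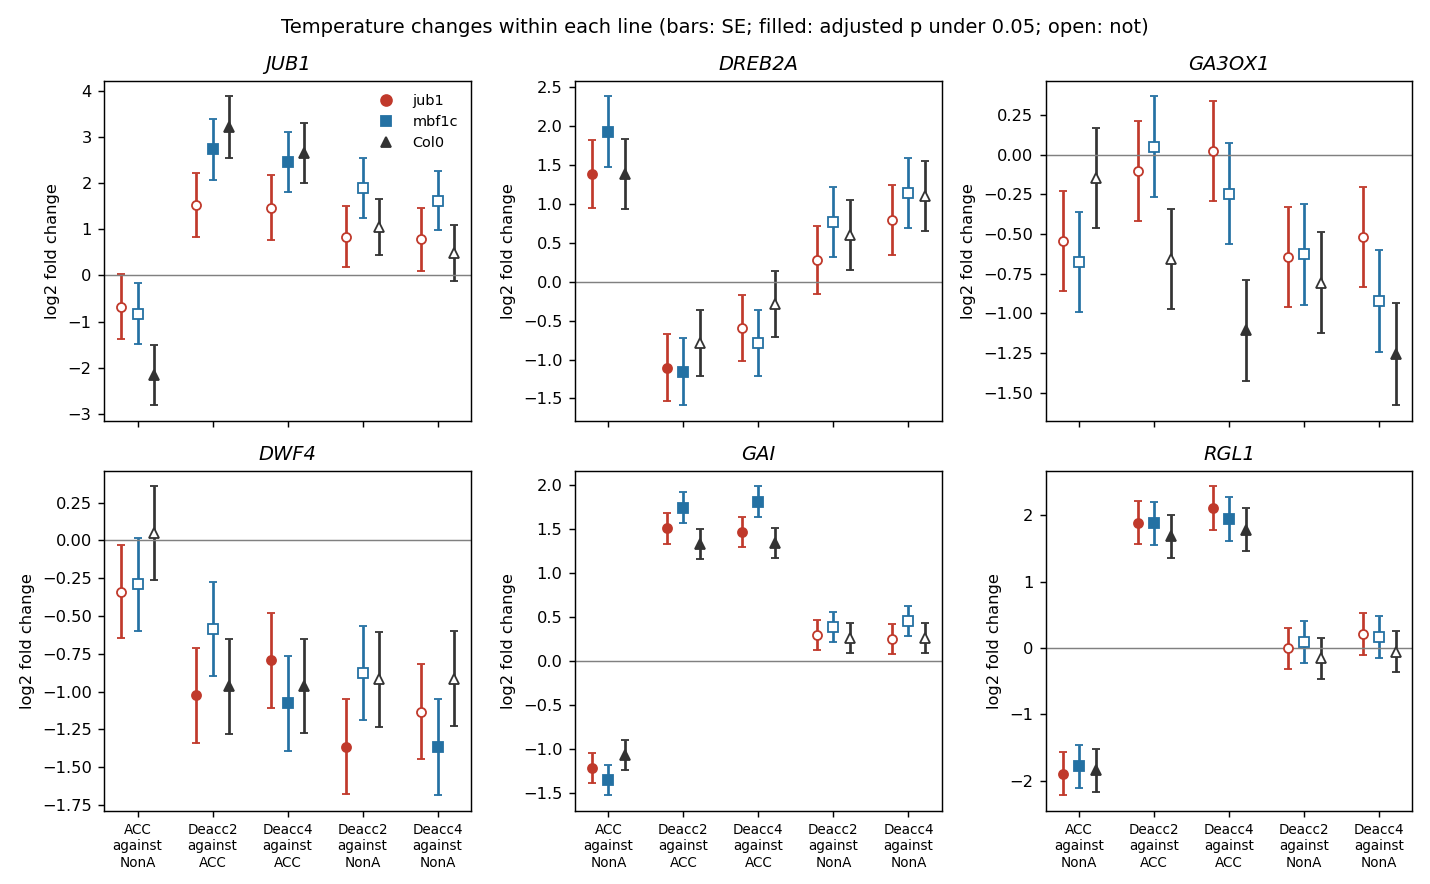
Log2 change of each of the 6 genes in 5 comparisons of conditions, 1 point per line with its standard error, filled where the edgeR adjusted p was under 0.05. GAI and RGL1 are filled in all 3 lines in the comparisons of ACC with NonA and of Deacc2 and Deacc4 with ACC, with close values in jub1, mbf1c and Col0.

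The lower JUB1 level in jub1 came with no called difference in any of its 5 targets. Averaged over the conditions, GA3OX1, which JUB1 is known to repress, had a log2 value of 0.49 in jub1 against Col0 (95% interval 0.16 to 0.81, unadjusted p = 0.00463, edgeR adjusted p = 0.497). DWF4, also known to be repressed by JUB1, had 0.47 (95% interval 0.15 to 0.79, unadjusted p = 0.00505, adjusted p = 0.497). Neither passed the test over all genes, of which 9.39% had an unadjusted p under 0.05 in this comparison. DREB2A had -0.05 (95% interval -0.49 to 0.40, adjusted p = 0.934), GAI had 0.00 (95% interval -0.17 to 0.17, adjusted p = 1) and RGL1 had 0.28 (95% interval -0.04 to 0.60, adjusted p = 0.550). The interval was narrowest for GAI and widest for DREB2A among the 5 targets.

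GA3OX1 had 12.8, 7.82 and 14.4 CPM in the Deacc4 libraries of jub1, against 5.56, 5.65 and 7.12 CPM in Col0. The jub1 libraries all lay above those of Col0. Of all genes, 12% did not overlap there, counting both directions. At this condition the log2 value of GA3OX1 was 1.10 (SE 0.32, unadjusted p = 0.00190, edgeR adjusted p = 0.909). Its mean in jub1 was 113% of Col0 in NonA, 96.0% in ACC, 138% in Deacc2 and 191% in Deacc4. In the other 3 conditions the libraries of jub1 and Col0 overlapped.

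DWF4 had 11.4, 19.7 and 12.6 CPM in the NonA libraries of jub1, against 9.52, 8.55 and 10.4 CPM in Col0, again with all jub1 libraries higher, where 8.33% of all genes did not overlap. Its log2 value at NonA was 0.73 (SE 0.31, unadjusted p = 0.0251, edgeR adjusted p = 0.999). In the other 3 conditions the DWF4 mean in jub1 was 117% to 128% of Col0, with overlapping libraries. GAI was lower in jub1 than in Col0 without overlap in ACC, at 19, 19.5 and 19.2 CPM in jub1 and 19.9, 23.4 and 21.6 CPM in Col0, where 5.61% of all genes did not overlap, and its fitted value there was -0.11 (SE 0.17).

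In mbf1c against Col0, 0 of the 6 genes were called by edgeR on average over the conditions, where 0.0290% of all genes were called, and DWF4 was the 1 gene of the 6 with an unadjusted p under 0.05 (0.33, SE 0.16, unadjusted p = 0.0409, adjusted p = 0.619), as 7.96% of all genes had. The values of the other targets were -0.01 for DREB2A, 0.17 for GA3OX1, 0.00 for GAI and 0.15 for RGL1. GA3OX1 was higher in mbf1c than in Col0 without overlap in Deacc2, at 12, 9.36 and 9.22 CPM in mbf1c and 9.12, 8.26 and 7.18 CPM in Col0, where 3.19% of all genes did not overlap. The jub1 and mbf1c comparisons share the Col0 libraries.

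The responses to cold and to its end did not differ between a mutant and Col0 by a called amount for any of the 6 genes. Among 36 tests of such a difference 0 were called by edgeR, as were 0% of all genes, and the smallest adjusted p was 0.9999. One had an unadjusted p under 0.05, that of GA3OX1 in Deacc4 against ACC in jub1 (1.13, SE 0.45, unadjusted p = 0.0176). There the fitted change was 0.02 in jub1 and -1.11 in Col0. Of all genes, 0.725% had an unadjusted p under 0.05 in that comparison, and 0.3% to 1.11% across the comparisons of this kind. Even JUB1 in jub1 was not called (-1.69 in Deacc2 against ACC), so the lack of calls does not show that the responses were equal.

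**Figure D5:**
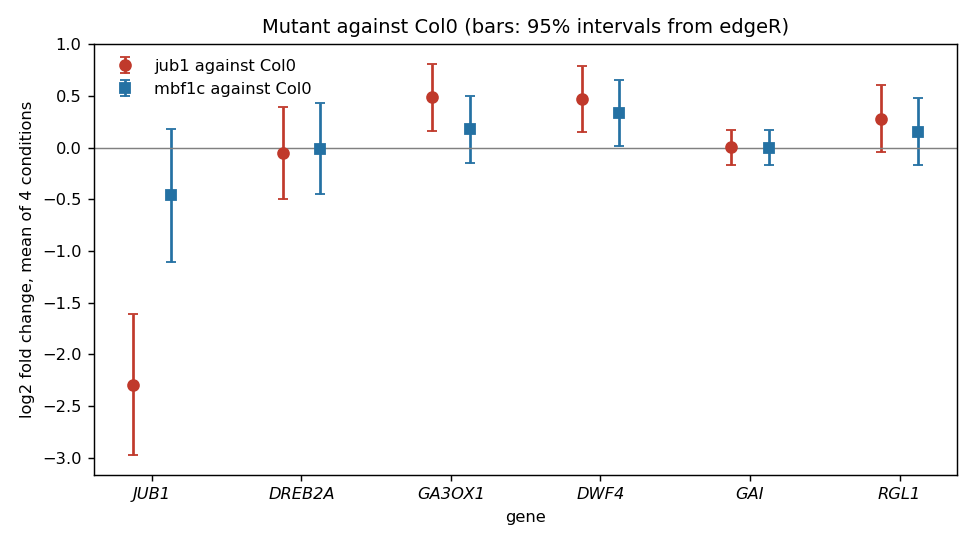
Log2 difference of each of the 6 genes in jub1 and in mbf1c against Col0, averaged over the 4 conditions, with 95% intervals. JUB1 in jub1 stands at -2.29, GA3OX1 and DWF4 in jub1 at 0.49 and 0.47 with intervals above 0 that were not called after adjustment, and GAI at 0.00.

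Of the 4 genes listed as regulators of JUB1, 4 fell in ACC against NonA and 4 rose in Deacc2 against ACC, averaged over the lines, beside 70.4% and 64.8% of all genes called, and the fall of BZR1 turned into a value above 0 with library totals alone. PIF4, the next gene to JUB1 on the chromosome and known as its repressor, fell by 2.36 (SE 0.18, edgeR adjusted p = 8.76e-12) and rose by 2.51 (SE 0.18, adjusted p = 1.57e-12). Its Col0 means were 105 CPM in NonA, 33.1 in ACC, 128 in Deacc2 and 132 in Deacc4. HB13, known to activate JUB1, fell by 1.21 (SE 0.15, adjusted p = 5.04e-08) and rose by 1.07 (SE 0.15, adjusted p = 2.97e-07). BES1, the close relative of BZR1, fell by 0.96 (SE 0.18, adjusted p = 3.86e-05) and rose by 0.62 (SE 0.18, adjusted p = 0.00369). In Col0 alone the call of its fall was lost without any 1 of 4 of the 6 libraries, and that of its rise without any 1 of 5. In jub1 BES1 averaged 163 CPM in NonA, 110 in ACC and 110 in Deacc2. Of the exonic bases, 33.6% of those of BES1 and 26.1% of those of BZR1 lie opposite other genes. BZR1 had -0.39 in the cold (SE 0.14, adjusted p = 0.0180) and 0.52 after it (SE 0.14, adjusted p = 0.00250). With library totals alone the BZR1 values were 0.06 (adjusted p = 0.657) and 0.22 (adjusted p = 0.117), so neither its fall nor its rise held under that scaling, and the fall also missed the threshold without any 1 of 10 libraries. In jub1 against Col0 none of the 4 was called by edgeR, the values lying between -0.06 and 0.13.

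The camalexin genes CYP71A12, CYP71A13 and PAD3 encode enzymes of the synthesis of the phytoalexin camalexin, a process in which JUB1 is known to take part. All 3 rose in Deacc2 against ACC averaged over the lines, by 2.26 for CYP71A12 (SE 0.30, edgeR adjusted p = 2.40e-07), 2.70 for CYP71A13 (SE 0.56, adjusted p = 0.000127) and 2.72 for PAD3 (SE 0.52, adjusted p = 4.04e-05), in a comparison in which 64.8% of all genes were called. By line, 3 of the 3 were called higher in Col0, 3 in jub1 and 1 in mbf1c, beside 21.8%, 18.9% and 21.3% of all genes. The Col0 calls of CYP71A13 and PAD3 were each lost without any 1 of 3 of the 6 libraries. PAD3 averaged 37.8 ± 18.7 CPM in Deacc2 of jub1, 23.3 ± 20.5 CPM in Deacc2 of mbf1c and 39.8 ± 7.0 CPM in Deacc2 of Col0 (SD, n = 3 each). In jub1 against Col0 over the conditions the values were -0.89 for CYP71A12 (SE 0.25, adjusted p = 0.497), -0.56 for CYP71A13 (SE 0.46, adjusted p = 0.628) and -0.57 for PAD3 (SE 0.42, adjusted p = 0.599). CYP71A12 averaged 5.29 CPM in NonA, 2.07 in ACC, 14.1 in Deacc2 and 10.3 in Deacc4 in jub1, against 9.58, 6.18, 19.8 and 19.1 CPM in Col0. Neither CYP71A12 nor CYP71A13 has a near-identical copy, and reads that match both equally well would have been set aside as multimapping. Of the exonic bases of CYP71A13, 22.1% lie opposite another gene.

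Among the other genes of gibberellin synthesis, breakdown and perception, 16 of 19 were tested, and 3 rose and 6 fell in ACC against NonA averaged over the lines, with a list median of -0.30 beside -0.00 over all genes. Of all genes, 70.4% were called in that comparison and 64.8% in Deacc2 against ACC. In Deacc2 against ACC 7 rose and 4 fell (list median 0.47, all genes -0.01). With library totals alone the counts were 7 higher and 6 lower in ACC against NonA, and 6 higher and 7 lower in Deacc2 against ACC. GA3, which encodes ent-kaurene oxidase, fell by 1.48 and rose by 1.53 in the 2 comparisons (SE 0.13 each, edgeR adjusted p = 2.39e-10 and 7.50e-11). Among the genes that rose in the cold were the synthesis genes KAO1 and KAO2, chosen after their values were seen, which averaged 11 and 31.6 CPM in ACC and 4.65 and 17.1 CPM in NonA of Col0. The gibberellin receptor gene GID1C fell by 1.33 and rose by 1.45 (SE 0.15 each, adjusted p = 9.61e-09 and 1.46e-09), and GA2OX2, whose enzyme breaks gibberellin down, fell by 1.42 and rose by 1.75 (SE 0.18 each, adjusted p = 8.23e-08 and 1.67e-09).

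Of the 15 other genes of brassinosteroid synthesis, breakdown and signalling, all tested, 3 rose and 11 fell in ACC against NonA (list median -0.79), and 12 rose and 1 fell in Deacc2 against ACC (list median 0.74). The medians over all genes were -0.00 and -0.01, and 70.4% and 64.8% of all genes were called in the 2 comparisons. With library totals alone 4 were higher and 7 lower in ACC against NonA, and 9 higher and 2 lower in Deacc2 against ACC. The synthesis gene CPD fell by 2.25 in the cold (SE 0.24, edgeR adjusted p = 5.20e-09), STE1 by 1.80 (SE 0.18, adjusted p = 1.11e-09) and DET2 by 1.62 (SE 0.18, adjusted p = 1.22e-08). In Deacc2 against ACC DET2 rose by 1.29 (SE 0.18, adjusted p = 4.12e-07), BR6OX1 by 2.82 (SE 0.35, adjusted p = 5.56e-08) and BAS1, whose enzyme inactivates brassinosteroids, by 2.63 (SE 0.26, adjusted p = 1.35e-09). CPD averaged 87.4 CPM in ACC and 273 CPM in NonA of Col0, where DWF4 averaged 12.9 CPM in ACC and 9.49 CPM in NonA. BZR1 and BES1 are in this list and in that of the JUB1 regulators.

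Of the 13 regulators and targets of DREB2A, 7 rose and 1 fell in ACC against NonA over the lines (list median 0.56), and 2 rose and 5 fell in Deacc2 against ACC (list median 0.09). The medians over all genes were -0.00 and -0.01, with 70.4% and 64.8% of all genes called, so the 8 and 7 of 13 genes called lay under the share of all genes. With a length correction 6 were higher and 3 lower in ACC against NonA, and 4 higher and 3 lower in Deacc2 against ACC. RD29A, a target of DREB2A that the CBF factors also activate, rose by 4.02 (SE 0.36, edgeR adjusted p = 2.23e-10) and then fell by 3.26 (SE 0.35, adjusted p = 3.95e-09). It averaged 2060 CPM in ACC and 107 CPM in NonA of Col0. HSFA1E, of the heat shock factor class that activates DREB2A, rose by 2.00 and fell by 1.90 (SE 0.18 each, adjusted p = 3.06e-10 and 3.82e-10). HSFA3, a heat shock factor gene that DREB2A activates in heat, fell by 2.67 and rose by 2.46 (SE 0.33 each, adjusted p = 8.13e-08 and 2.31e-07), opposite to DREB2A itself.

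Across the 12 groups, the means of GAI and RGL1 on the log2 CPM scale had a Pearson r of 0.97, the highest of any pair among the 6 genes. GA3OX1 and DWF4, the pair of genes that JUB1 is known to repress, had an r of 0.83. Over the 8 groups of Col0 and mbf1c, JUB1 had an r of 0.88 with GAI, 0.82 with RGL1, -0.78 with DWF4, -0.48 with GA3OX1 and -0.39 with DREB2A. Both genes of a pair were measured in the same libraries, and the values are a description.

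The genes whose group means were most like each member, among 17463 genes that averaged 1 CPM or more, had an r of 0.96 or more. For JUB1 over the 8 groups they were AT3G22600, the mitogen-activated protein kinase gene MPK3 and the receptor-like kinase gene CRCK1 (r of 0.99 each). For DREB2A over the 12 groups they were FIP2, SD1-29 and the clock gene PRR5 (0.96 each). For GA3OX1 they were AT3G61950, PPD1 and AT5G47190 (0.97 to 0.98), and for DWF4 AT3G01795, AT3G13404 and AT3G25855 (0.98 to 0.99). For GAI they were SQE2, FC1 and ACS8 (0.99 each or higher), and for RGL1 AT1G30910, the light-harvesting gene LHCB5 and AT5G27280 (0.99 each or higher).

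In the order of the 12 group means, most neighbouring groups overlapped. For JUB1 9 of the 11 neighbouring pairs overlapped, the breaks lying between Col0 NonA and mbf1c NonA and between Col0 ACC and jub1 NonA. For GAI 8 of 11 overlapped, for RGL1 and GA3OX1 10 of 11, and for DREB2A and DWF4 all 11. Over the 36 libraries the range was widest for JUB1 and DREB2A (24.8-fold and 18.9-fold) and narrowest for GAI (3.63-fold). The median level per kilobase of exon was 15.9 CPM for GAI, 14.8 for RGL1, 7.82 for GA3OX1, 3.16 for DWF4, 1.27 for DREB2A and 1.13 for JUB1.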

How the data were processed

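Each library has 1 deposited table of unnormalised read counts for every gene, given without regard to strand and for each strand, as the values show. Per the submitters' processing notes the genome build was TAIR10 and the tools STAR 2.6.0c and DESeq2, with no role given for DESeq2. Its annotation release was not given in the sources used. The unstranded counts were used here, grouped by line and condition from the labels. Gene counts per library ran from 14407060 to 63178347, and 7.04% to 12.8% of reads lay outside single genes and were left out. PCR copies were not removed by molecular identifiers, so the limit of 3 counts covers counting error only. Replicates of a group differed by far more than counting noise (chi-square over degrees of freedom of at least 16.9), so none was a duplicate.

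edgeR 4.0.16 (R 4.3.3) filterByExpr by group kept 20679 genes. After TMM scaling all 36 libraries entered 1 quasi-likelihood fit with group means as coefficients. In it 36 contrasts were tested, and p-values were adjusted by Benjamini-Hochberg over all genes within a contrast at 0.05. A called gene is one past that threshold, and adjusted p-values are edgeR's unless another tool is named. Levels are CPM over gene counts without TMM scaling or a prior count. The fit was tested on simulated counts. Alternatives were DESeq2 1.42.0, its size factors in edgeR, no filter, the replicate number as a block, only the compared groups, a correction for exonic length with and without the block, the first strand column and each library left out in turn. Scaling by library totals without TMM was chosen after seeing the data.

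The replicate numbers come from the labels, whose titles write them as Exp1 to Exp3 in every group and do not say what libraries of 1 number share. In 8 of 23 contrasts of 2 groups all same-numbered libraries deviated together with a correlation over 0.1. These included mbf1c against Col0 at every condition, with correlations of 0.288 to 0.751, and jub1 against Col0 at Deacc2. The replicate number was left out of the fit reported, and the blocked value is given wherever it changes a call of the 6 genes.

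Coordinates, exonic lengths and promoters (the 1000 or 300 bases before the annotated start) come from the RefSeq genome and annotation of TAIR10.1, read by gene identifier, which gave a length for 32548 genes. Genes named were the 6 members, their paralogues, the JUB1 regulators, the camalexin genes, up to 3 genes of each other list with the smallest adjusted p, and the 3 genes most like each member by Pearson r. KAO1 and KAO2 were named outside these rules, after their values were seen. The members and lists were chosen with earlier results of these data known.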

Additional observations from a re-analysis of the deposited data

How the results depend on the processing

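The 118 values of the 6 genes were recomputed in 9 other settings and with each of 36 libraries left out in turn. Of the 63 called values, 39 were called in every setting, 24 lost the call in at least 1, and 0 reversed. Of 59 called values of the other named genes, KAO1 and KAO2 not included, 47 were called in every setting, and 1, that of BZR1, reversed. JUB1 in jub1 against Col0, averaged over the conditions, lay between -2.39 and -2.14 in all settings, with adjusted p of at most 0.00428.

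The cause of the reversals was not tested. With library totals without TMM, GA3OX1 in Col0 in ACC against NonA was 0.16, RGL1 in Col0 in Deacc4 against NonA 0.074, DWF4 over the lines in ACC against NonA 0.26, RGL1 over the lines in Deacc2 against NonA 0.15 and GAI in jub1 against Col0 -0.11. With them RGL3 over the lines in ACC against NonA was 0.38, and BZR1 was 0.060 in Col0 and 0.062 over the lines, the second against a called value of -0.39. Without the filter RGL1 in Col0 in Deacc4 against NonA was 0.067, RGL1 over the lines in Deacc2 against NonA 0.046 and GAI in jub1 against Col0 -0.0018. With the replicate number as a block GA3OX1 in jub1 against Col0 in ACC was 0.0006 and GAI in jub1 against Col0 -0.0016. With the first strand column these were 0.0016 for RGL1 in Col0 in Deacc4 against NonA, 0.070 for RGL1 over the lines in Deacc2 against NonA and -0.027 for GAI in jub1 against Col0. With a length correction GA3OX1 in Col0 in ACC against NonA was 0.078, DWF4 there -0.56 (0.05 without the correction) and GAI in mbf1c against Col0 0.089. With that correction and the replicate block they were 0.063, -0.51 and 0.081, and RGL1 in Col0 in Deacc4 against NonA was 0.0007. With only the compared groups RGL1 over the lines in Deacc2 against NonA was 0.0004.

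The number of the 6 genes called in Deacc4 against NonA in Col0 was 1, and it was 0 without the filter, 0 with the first strand column, 2 with the length correction and the replicate block, 3 with only the compared groups and 2 with DESeq2. Among the values of the 6 genes the replicate block ended 1 call, that of DREB2A over the lines in Deacc4 against ACC, and added 3, those of JUB1 in jub1 in Deacc2 against ACC, GA3OX1 in mbf1c in ACC against NonA and DWF4 in jub1 in Deacc4 against NonA.

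With 1 library left out, the range was -0.23 to 0.051 for DREB2A and -0.036 to 0.034 for GAI in jub1 against Col0, and -0.17 to 0.050 for DREB2A and -0.048 to 0.015 for GAI in mbf1c against Col0. It was -0.23 to 0.44 for GA3OX1 in jub1 against Col0 in ACC. In Col0 it was -0.59 to 0.089 for GA3OX1 and -0.048 to 0.21 for DWF4 in ACC against NonA, -0.31 to 0.013 for RGL1 in Deacc2 against NonA and -0.13 to 0.11 for RGL1 in Deacc4 against NonA. Over the lines it was -0.12 to 0.10 for RGL1 in Deacc2 against NonA and -0.14 to 0.11 for RGL3 in ACC against NonA. The 6 genes called numbered 2 to 4 in Col0 in ACC against NonA and 0 to 1 in Deacc4 against NonA, the lone call of GA3OX1 being lost without Col0 NonA replicate 1 or 3 or Deacc4 replicate 1 or 2. With 3 libraries per group, JUB1 and DREB2A, at a few CPM, had the largest standard errors of the 6 genes.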
